A study of Mus musculus with 16 samples.

Results

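The tumour suppressor p53 is a transcription factor that is stabilised when DNA is damaged and then binds response elements near its target genes. Among its targets are genes that feed back on p53, genes that arrest the cell cycle and genes that commit a cell to death, and a further set acts in apoptosis, autophagy, kinase signalling, metabolism, nucleotide supply, secretion and antigen presentation. The latter set is described here as a list of 33 known p53 target genes, chosen by name, with earlier results of these data known. All 33 symbols were found in the deposited count tables, as 34 entries of the 22375 in the table, since Tnfaip8 has 2 entries. All 34 entries passed the filter on low counts and were tested together with the other genes, 15758 in all.

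Mouse embryonic stem (ES) cells are pluripotent cells of the early embryo, and doxorubicin is a DNA-damaging drug that traps topoisomerase on DNA. RNA was sequenced from wild-type cells of the E14Tg2a line (WT) and from ES cells lacking Cfp1 (Cfp1-/-), the CpG-binding subunit of a histone H3 lysine 4 methyltransferase complex, both labelled with the same 129/OLA strain background. Cells of each line were grown on gelatin with serum and LIF and were either left untreated or treated with doxorubicin for 6 hours, at 1 μM according to the treatment protocol and the methods of the study, whereas the treatment label of the samples reads 1 mM. Each of the 4 groups had 2 biological replicates, each sequenced in 2 technical replicates that were summed (n = 2 per group). Each genotype was represented by 1 line, so line and genotype cannot be told apart, and neither the labels nor the methods say whether biological replicates were separate cultures. The p-values therefore measure the spread between these samples, which may be technical.

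Cxxc1, the gene encoding Cfp1, gave 807 to 1199 normalized counts in the WT libraries and 0.964 to 5.11 in the Cfp1-/- libraries. Total counts per biological replicate lay between 14880589 and 29422711. The ES cell markers Pou5f1, Sox2, Nanog and Zfp42 were read in all libraries, and the 8 ES cell markers summed to between 22500 and 87610 normalized counts per library. This sum was lower in treated cells, at 25980 to 33700 against 66240 to 87610 in WT cells and 22500 to 28450 against 62690 to 64980 in Cfp1-/- cells. In WT cells Zfp42, Nanog, Tdgf1, Sox2, Klf4, Utf1 and Pou5f1 fell, with log2 fold changes from -3.36 to -0.38, whereas Dppa5a did not pass the test (-0.06). Single markers differed between the untreated lines. Nanog gave 6419 and 3651 counts in untreated WT and 14050 and 13040 in untreated Cfp1-/- cells, and Zfp42 gave 15660 and 9967 against 5035 and 5077. The summed count of the 6 fibroblast markers was higher in treated cells, at 419 to 569 against 243 to 257 in WT cells and 393 to 544 against 128.5 to 135 in Cfp1-/- cells. In WT cells Col1a1, Pdgfrb and Thy1 rose, whereas Col3a1, Dcn and Col1a2 did not pass the test, with log2 fold changes of -0.81, -0.57 and -0.32. Col3a1 was at 0 in 1 untreated Cfp1-/- library, and Afp, Foxa2, Elf5 and Cdx2, which mark extraembryonic lineages or endoderm, were each at 0 in at least 1 library. Other markers of these lineages, Gata4, Gata6, Sox17 and Hand1, were above 0 in all libraries. In WT cells Afp and Hand1 rose with doxorubicin at low counts, with log2 fold changes of 5.74 and 3.21. Gata4, Gata6, Sox17 and Elf5 did not pass the test, and Foxa2 and Cdx2 were not tested. The part of changing cell states in the responses described here was not tested, and fewer cells of a type and less RNA per cell cannot be told apart in these bulk samples. Technical replicates differed by close to sampling noise in 6 of the 8 libraries, with a chi-square over its degrees of freedom of 0.998 to 1.05. The exceptions were the first replicates of both treated groups, where the chi-square over its degrees of freedom was 9.61 (WT) and 42.9 (Cfp1-/-). None of the listed genes lies on chromosome 19, X or Y, where the second run of that Cfp1-/- replicate lost counts. The log2 ratio of its second to its first run still had a median of 0.12 over the 33 listed entries with at least 50 counts. This was the largest median of the 8 libraries, and the ratio lay between -0.505 and 0.509. With that second run left out, 27 of the 34 entries were higher with doxorubicin in WT cells and 23 in Cfp1-/- cells, against 27 and 24 with it. In the first treated WT replicate the log2 ratio of the second to the first run had a median of 0.04. It lay between -0.675 and 1.11 over the 32 listed entries with at least 50 counts. With the first runs of all libraries alone, 27 and 23 entries were higher.

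The first question was which of these targets responded to doxorubicin in WT ES cells. A gene was called higher or lower at an adjusted p under 0.05 (edgeR quasi-likelihood test, Benjamini-Hochberg adjustment over all genes tested). Of the 34 entries, 27 were higher with doxorubicin in WT cells (79.4%) and 0 were lower, whereas 26.5% of all genes tested were higher and 21.8% lower. At an unadjusted p under 0.05 and by DESeq2's Wald test 0 entries were lower as well. The median log2 fold change of the entries was 1.76, and that of all genes tested was 0.06, with an interquartile range from -0.50 to 0.96. The study called a gene upregulated only if it also changed 2.5-fold or more, and a mean of 200 or more normalized counts over the libraries compared was required. By these limits 16 of the 34 entries were upregulated in WT cells (47.1%), against 5.10% of all genes tested.

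In Cfp1-/- cells 24 entries were higher with doxorubicin (70.6%, against 27.8% of all genes tested) and 0 were lower (against 21.0%), as also at an unadjusted p under 0.05 and by DESeq2's Wald test, whereas 1 (Plk3) was lower in a fit with the replicate number as a block. The median log2 fold change was 1.20 for the entries and 0.01 for all genes tested. At the limits of the study 12 entries were upregulated (35.3%, against 5.38% of all genes tested), and all 12 were also among the 16 of WT cells. The 4 that passed in WT cells alone were Ak1, Cpt1c, Phlda3 and Zmat3, and the differences between the lines are tested further on. Zmat3 did not pass these limits with the replicate block or by DESeq2's Wald test. Scaling by total counts instead of TMM shifted the median of all genes by 0.31 in WT cells and 0.21 in Cfp1-/- cells. With it, 29 and 26 entries were higher and 0 lower in both lines. The share of all genes called with this scaling is not given, so these counts cannot be set against it.

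**Figure D1:**
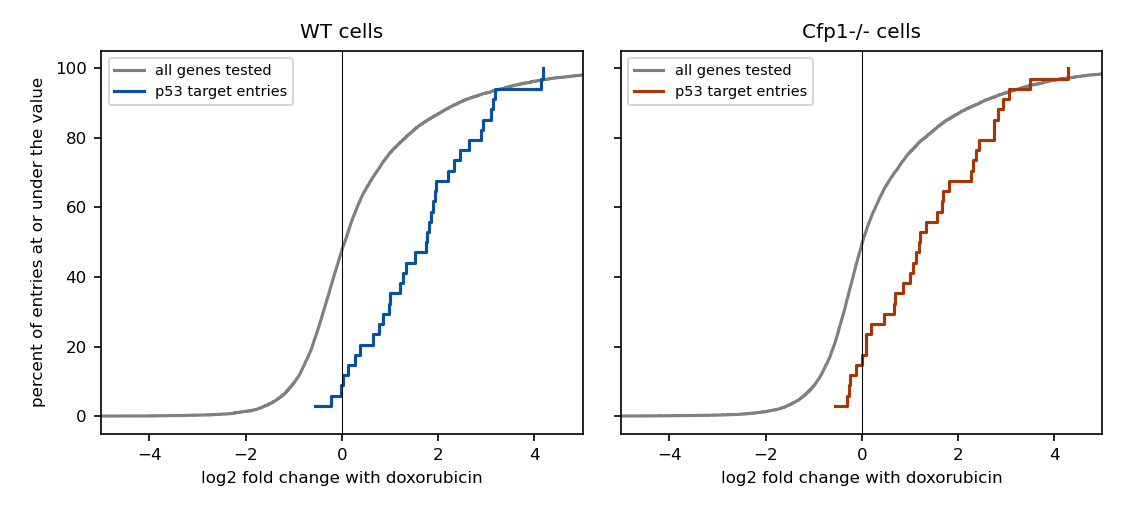
Cumulative distribution of the log2 fold changes with doxorubicin in WT cells (left) and Cfp1-/- cells (right), for all 15758 genes tested (grey) and for the 34 entries of the p53 target list (coloured); the x axis is limited to 5 on either side of 0. The coloured curves lie to the right of the grey ones over most of the range, with medians of 1.76 and 1.20 against 0.06 and 0.01.

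**Figure D2:**
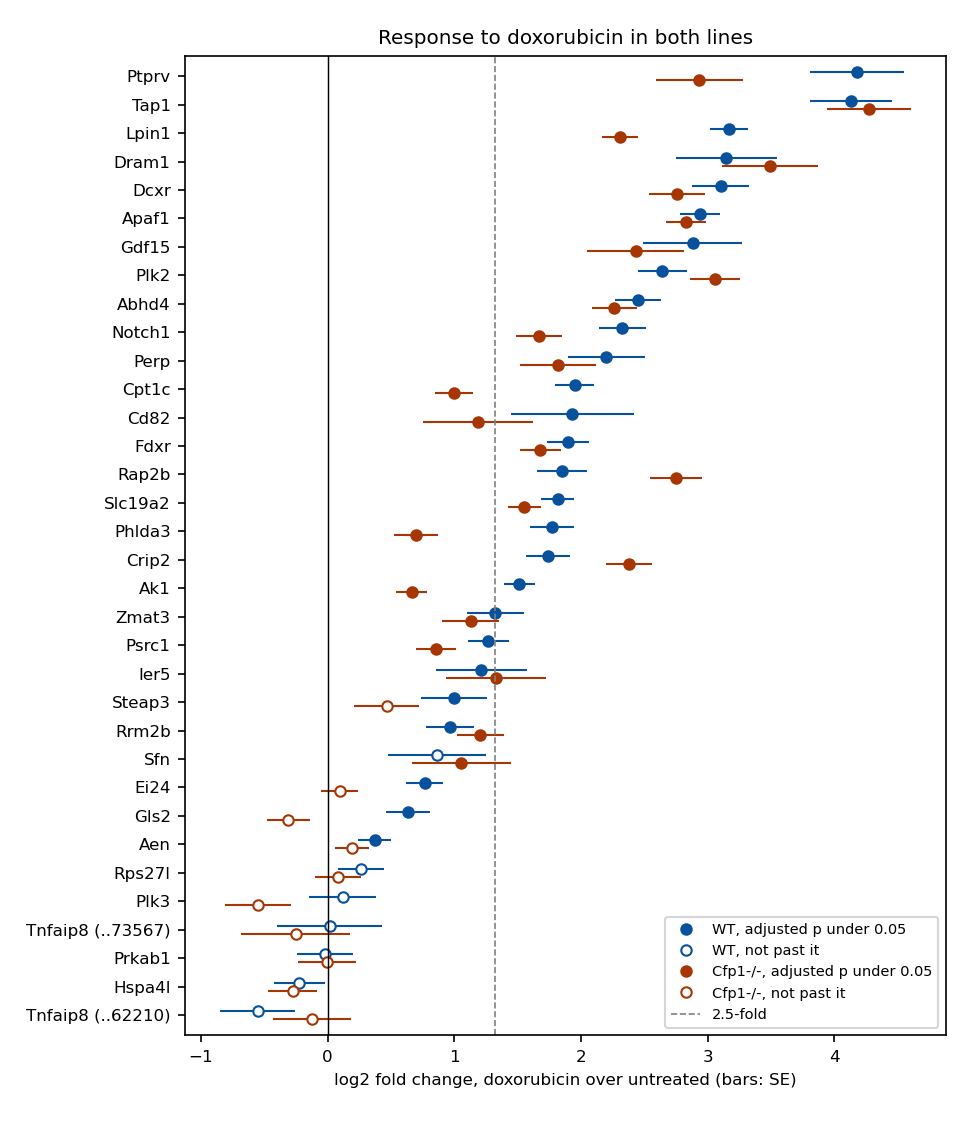
Log2 fold change with doxorubicin in WT (blue) and Cfp1-/- cells (brown) for each entry, ordered by the value in WT cells. Bars are standard errors (n = 2 per group), filled points have an adjusted p under 0.05, and the dashed line marks a fold change of 2.5; Ptprv and Tap1 stand at the top in WT cells, and no filled point lies below 0. The numbers after Tnfaip8 are the last digits of the identifiers of its 2 entries.

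p53 binds a response element of a pair of decameric half-sites, and such elements often lie in the first intron or promoter of a target. The 10 kb around the start of each gene in the table (5000 bases on either side, NCBIM37 genome, both strands) was searched for the p53 consensus, either exactly with 0 to 13 bases between the half-sites or with at most 1 mismatch outside the conserved C and G of each half-site and no spacer. An exact match was found at 2 of the 34 entries (5.88%), Zmat3 and Dcxr, against 3.26% of the genes tested. With at most 1 mismatch and no spacer there were 4 (11.8%), Zmat3, Gdf15, Psrc1 and Rps27l, against 1.91% of the genes tested and 2.92% of the 2772 genes that rose at least 2.5-fold in WT cells. The matches are shown because they are the only ones at these 34 windows under these settings. They are read on the strand of the gene, with the half-sites in capitals and flanking or spacer bases in lower case.
Zmat3, exact, chr3:32263253-32263272, minus strand, intron: gtgagAAACAAGCCCAGGCATGTCTtggga
Zmat3, 1 mismatch, chr3:32269073-32269092, minus strand, upstream of the gene: ttggaGAGCAAGTCTGGGCTTGTTAgttta
Gdf15, 1 mismatch, chr8:73155865-73155884, minus strand, annotated UTR: aggggTGACTTGCCTGAACTTGCCTtttct
Psrc1, 1 mismatch, chr3:108187574-108187593, plus strand, intron: tccctGGGCATGTTGAGGCATGCCCtgcaa
Rps27l, 1 mismatch, chr9:66794103-66794122, plus strand, intron: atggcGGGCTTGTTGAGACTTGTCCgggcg
Dcxr, exact with a spacer of 2 bases, chr11:120583996-120584017, minus strand, downstream of the gene: ttcgAGGCTAGTTCcaAGGCTAGCTCccca
A match of letters is a description and not a measured binding site. Of the genes with a match, Gdf15, Dcxr, Psrc1 and Zmat3 rose with doxorubicin in both lines, while Rps27l did not pass the test in either. In the RefSeq promoter table (GRCm38.p6, 250 bases before to 50 after the start), 27 of the 33 symbols were matched, and 6 of them held at least 1 exact half-site, which is 22.2% against 8.5% of the symbols of tested genes. The median observed over expected CpG ratio of these promoters was 0.766 against 0.756, and 70.4% against 69.8% had a ratio of at least 0.6.

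**Figure D3:**
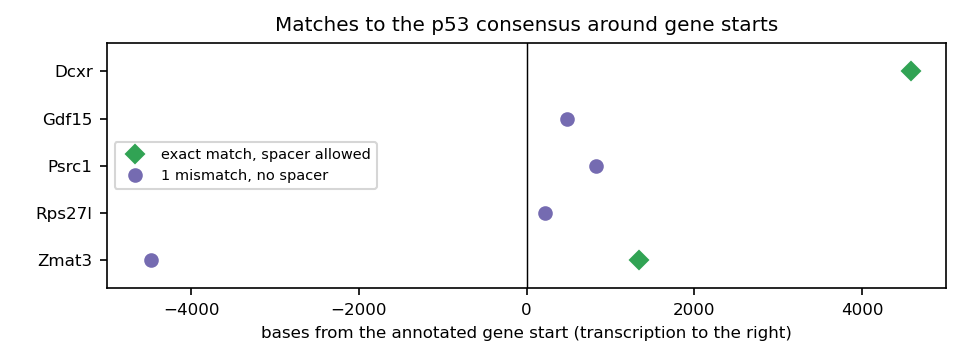
Position of each match to the p53 consensus around the starts of the listed genes; the x axis gives bases from the annotated gene start with transcription to the right, and each row is a gene. The matches of Gdf15, Psrc1 and Rps27l and the exact match of Zmat3 lie between 220 and 1338 bases downstream of the start.

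**Figure D4:**
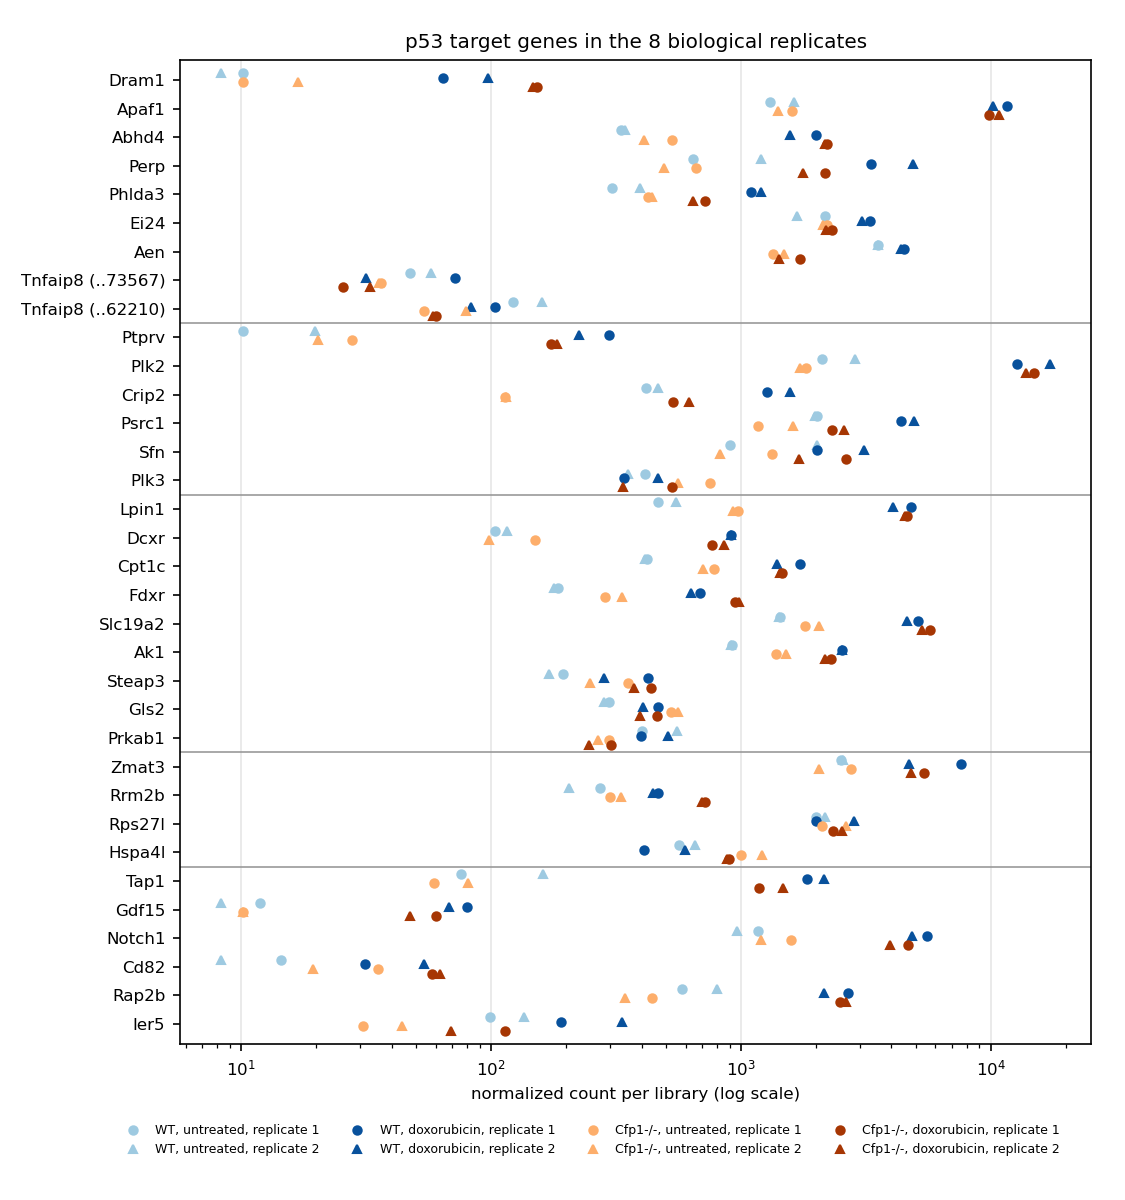
Normalized count of each entry in each of the 8 biological replicates on a log axis, with rows grouped by role (death and survival, kinases and cell cycle, metabolism and transport, nucleotide supply with RNA and protein, surface and signalling). Circles are replicate 1 and triangles replicate 2; for most rows the dark points of treated cells lie to the right of the light points of untreated cells, and for Prkab1 and Rps27l they are mixed.

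Genes of cell death and survival formed the first group, with 9 entries, of which 7 rose in WT cells and 5 in Cfp1-/- cells. Apaf1 (chr10:90452056-90545515), the scaffold of the apoptosome that activates caspase-9, gave 1308 and 1629 normalized counts in untreated and 11639 and 10160 in treated WT cells. Apaf1 gave 1593 and 1407 in Cfp1-/- cells without and 9859 and 10820 with the drug. Treated and untreated libraries were widely separated in both lines, with log2 fold changes of 2.94 ± 0.16 (SE, adjusted p = 3.1e-06) and 2.83 ± 0.16 (adjusted p = 4.1e-06). Perp (chr10:18564877-18576879), a desmosomal membrane protein linked to p53-dependent apoptosis, rose from 646 and 1204 to 3318 and 4892 in WT cells, a log2 fold change of 2.20 ± 0.30 (adjusted p = 0.00032). Perp rose in Cfp1-/- cells from 658 and 491 to 2175 and 1765, by 1.82 ± 0.30 (adjusted p = 0.00095). Both treated Cfp1-/- libraries of Perp lay below both treated WT libraries.

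Abhd4 (chr14:54878907-54888829), a lipid hydrolase of the N-acylethanolamine pathway, gave 330.4 and 344 counts in untreated and 1996 and 1574 in treated WT cells. Abhd4 gave 530.3 and 409 in Cfp1-/- cells without and 2216 and 2166 with doxorubicin. The increases were 2.45 ± 0.18 (adjusted p = 1.1e-05) and 2.26 ± 0.18 (adjusted p = 1.6e-05) on the log2 scale, so the groups did not overlap in either line. Phlda3 (chr1:137662696-137665713), a pleckstrin homology domain protein that competes with Akt for membrane lipids, rose from 304 and 395 to 1100 and 1207 in WT cells, by 1.77 ± 0.18 (adjusted p = 4.7e-05). Phlda3 rose in Cfp1-/- cells from 426 and 439 to 719 and 645, by 0.70 ± 0.17 (adjusted p = 0.0079). The treated Cfp1-/- libraries lay above their untreated ones and below the treated WT ones, and without replicate 1 of treated Cfp1-/- cells the increase was 0.60 (adjusted p = 0.0569).

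Ei24 (chr9:36586740-36604938), a membrane protein of the endoplasmic reticulum involved in autophagy, was at 2162 and 1675 counts in untreated and 3280 and 3052 in treated WT cells, an increase of 0.77 ± 0.15 (adjusted p = 0.002). The Cfp1-/- libraries were at 2206 and 2125 without and 2311 and 2181 with the drug, and they overlapped, with a log2 fold change of 0.10 ± 0.15 (adjusted p = 0.618). Aen (chr7:86040740-86056095), an apoptosis-enhancing nuclease, gave 3547 and 3518 counts in untreated and 4500 and 4354 in treated WT cells, 0.37 ± 0.13 higher (adjusted p = 0.0415). Its Cfp1-/- libraries gave 1349 and 1488 without and 1721 and 1420 with doxorubicin (log2 fold change 0.19 ± 0.13, adjusted p = 0.269). The groups were apart in WT cells and overlapped in Cfp1-/- cells. The WT call of Aen did not pass under DESeq2's Wald test (adjusted p = 0.0854), with DESeq2's size factors (adjusted p = 0.0618) or without the filter on low counts (adjusted p = 0.0609), and it was lost in 5 of the 8 fits that left out a library, with the highest adjusted p of 0.164 without replicate 2 of untreated WT cells.

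Dram1 (chr10:87785549-87841825), a lysosomal membrane protein that promotes autophagy, was near silent before treatment, with 10.2 and 8.34 counts in WT and 10.2 and 16.9 in Cfp1-/- cells. With doxorubicin it reached 64.2 and 97.2 in WT and 153 and 147 in Cfp1-/- cells. These were increases of 3.15 ± 0.40 (adjusted p = 0.0002) and 3.49 ± 0.38 (adjusted p = 8e-05), at a mean count below the limit of 200. Tnfaip8, an inhibitor of apoptosis induced by tumour necrosis factor, lies on chromosome 18 with 2 nested entries on the same strand, so reads on shared exons were left out of both counts and its values are uncertain. The entry ENSMUSG00000062210 gave 122 and 161 counts in untreated and 103 and 83.4 in treated WT cells, and 53.8 and 79.4 against 60.3 and 58.8 in Cfp1-/- cells. The other entry gave 25.5 to 72 counts in all libraries. Neither entry passed the test in either line, with adjusted p between 0.155 and 0.976.

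The second group held kinases, a phosphatase and genes of the cell cycle or cytoskeleton, of which 4 of 6 rose in WT cells and 5 of 6 in Cfp1-/- cells. Plk2 (chr13:111185252-111191052), a polo-like kinase of the stress response, gave 2102 and 2858 counts in untreated and 12744 and 17207 in treated WT cells. Plk2 gave 1823 and 1724 in Cfp1-/- cells without and 14876 and 13798 with the drug. It rose by 2.64 ± 0.19 (adjusted p = 1e-05) and 3.06 ± 0.20 (adjusted p = 6.6e-06), and per kilobase of exon it was the most abundant listed gene in treated cells, at a mean of 5345 normalized counts per kilobase in WT and 5117 in Cfp1-/- cells. Plk3 (chr4:116801260-116806568), a related kinase, gave 415 and 352 counts in untreated and 342 and 465 in treated WT cells (log2 fold change 0.12 ± 0.26, adjusted p = 0.733). Plk3 gave 749 and 559 in Cfp1-/- cells without and 529 and 338 with doxorubicin, -0.55 ± 0.26 on the log2 scale (adjusted p = 0.108). The WT groups overlapped and the Cfp1-/- groups did not, and in the fit with the replicate number as a block the change in Cfp1-/- cells passed the test at -0.56 (adjusted p = 0.0481).

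Ptprv (chr1:137007746-137008883), a receptor-type tyrosine phosphatase that arrests the cell cycle downstream of p53, had the largest log2 fold change of the 34 entries in WT cells. It gave 10.2 and 19.8 counts in untreated and 296 and 224 in treated WT cells, an increase of 4.17 ± 0.37 (adjusted p = 2.6e-05). Ptprv gave 27.8 and 20.3 in Cfp1-/- cells without and 174 and 184 with the drug, an increase of 2.93 ± 0.35 (adjusted p = 0.00013). Its entry covers only 291 bases of exon, and its mean count was below 200 in both comparisons. Crip2 (chr12:114378447-114383715), a LIM domain protein that binds the cytoskeleton and DNA-binding factors, rose from 416 and 464 to 1272 and 1575 counts in WT cells, by 1.74 ± 0.17 (adjusted p = 4.6e-05). Crip2 rose in Cfp1-/- cells from 114 and 115 to 535 and 621, by 2.38 ± 0.18 (adjusted p = 1.4e-05). The Cfp1-/- libraries of Crip2 lay below the WT libraries of the same treatment throughout.

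Psrc1 (chr3:108186757-108191149), a microtubule-binding protein of the mitotic spindle, rose from 2009 and 1969 to 4376 and 4915 counts in WT cells, by 1.27 ± 0.16 (adjusted p = 0.00019). Psrc1 rose in Cfp1-/- cells from 1173 and 1617 to 2321 and 2576, by 0.86 ± 0.16 (adjusted p = 0.00187). Sfn (chr4:133156471-133158083), the 14-3-3 sigma protein that holds cells at the G2 checkpoint, varied between replicates more than most listed genes. It gave 900.4 and 2021 counts in untreated and 2020 and 3114 in treated WT cells, so the groups overlapped, with a log2 fold change of 0.86 ± 0.39 (adjusted p = 0.0925). Sfn gave 1327 and 827 in Cfp1-/- cells without and 2641 and 1709 with doxorubicin, an increase of 1.06 ± 0.39 (adjusted p = 0.0466). With the replicate block the WT increase passed as well, at 0.87 (adjusted p = 0.0497), and without replicate 1 of treated Cfp1-/- cells the Cfp1-/- increase was 0.69 (adjusted p = 0.27). The Cfp1-/- call was also lost in 2 other fits that left out a library and with the affected second run left out (adjusted p = 0.0574).

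Genes of metabolism and transport formed the third group, with 9 entries, of which 8 rose in WT cells and 6 in Cfp1-/- cells. Lpin1 (chr12:16542475-16596576), a phosphatidate phosphatase and coregulator of fatty acid oxidation, rose from 465 and 548 to 4769 and 4056 counts in WT cells, by 3.17 ± 0.15 (adjusted p = 1.7e-06). Lpin1 rose in Cfp1-/- cells from 975 and 925 to 4600 and 4530, by 2.31 ± 0.14 (adjusted p = 5.5e-06). The treated libraries of both lines reached the same range, whereas the untreated Cfp1-/- libraries started above the untreated WT ones. Cpt1c (chr7:52214743-52230184), a carnitine palmitoyltransferase family member, rose from 421 and 413 to 1729 and 1396 in WT cells, by 1.95 ± 0.16 (adjusted p = 1.5e-05). Cpt1c rose in Cfp1-/- cells from 783 and 704 to 1453 and 1431, by 1.00 ± 0.15 (adjusted p = 0.00056). As for Lpin1, the lines were apart before treatment and overlapped after it.

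Ak1 (chr2:32477278-32502325), the cytosolic adenylate kinase, rose from 923 and 911 to 2531 and 2542 counts in WT cells, by 1.51 ± 0.12 (adjusted p = 1.7e-05). Ak1 rose in Cfp1-/- cells from 1381 and 1520 to 2287 and 2172, by 0.66 ± 0.12 (adjusted p = 0.00163). The end of Ak1 overlaps the start of Eng on the same strand, and Eng itself rose by 3.58 in WT and 2.28 in Cfp1-/- cells, so the count of Ak1 is less certain than that of other genes. Slc19a2 (chr1:166179177-166195516), a thiamine transporter, gave 1435 and 1421 counts in untreated and 5131 and 4605 in treated WT cells, and 1808 and 2044 against 5679 and 5294 in Cfp1-/- cells. It rose by 1.82 ± 0.13 (adjusted p = 8.6e-06) and 1.55 ± 0.13 (adjusted p = 1.9e-05). The replicates of each group lay close together, and treated and untreated groups were apart in both lines.

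Dcxr (chr11:120586713-120588595), a dicarbonyl and xylulose reductase, gave 104 and 116 counts in untreated and 910.4 and 914 in treated WT cells, and 149 and 98 against 767 and 854 in Cfp1-/- cells. The increases were 3.10 ± 0.23 (adjusted p = 9.9e-06) and 2.76 ± 0.22 (adjusted p = 1.8e-05). Fdxr (chr11:115129338-115138364), the mitochondrial ferredoxin reductase, rose from 185 and 178 to 682 and 628 in WT cells, by 1.90 ± 0.17 (adjusted p = 2.5e-05). Fdxr rose in Cfp1-/- cells from 286 and 334 to 943 and 985, by 1.68 ± 0.16 (adjusted p = 4.4e-05), and these libraries lay above the WT libraries of the same treatment.

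Steap3 (chr1:122087334-122169282), a metalloreductase of the iron cycle, gave 194 and 169.9 counts in untreated and 423 and 283 in treated WT cells, an increase of 1.00 ± 0.26 (adjusted p = 0.0106). Without replicate 1 of treated WT cells it was 0.68 (adjusted p = 0.084), and the call was also lost without replicate 2 of untreated WT cells (0.89, adjusted p = 0.0564). Steap3 gave 352 and 249 in Cfp1-/- cells without and 435 and 372 with the drug, with a log2 fold change of 0.47 ± 0.25 (adjusted p = 0.156) that passed with the replicate block (0.48, adjusted p = 0.0367). Gls2 (chr10:127631513-127647060), the liver-type glutaminase, gave 296 and 282 counts in untreated and 466 and 407 in treated WT cells, an increase of 0.64 ± 0.18 (adjusted p = 0.0137). Gls2 gave 527 and 562 in Cfp1-/- cells without and 459.6 and 393 with the drug, -0.31 ± 0.17 on the log2 scale (adjusted p = 0.166). The WT increase of Gls2 was lost without replicate 1 of treated (0.53, adjusted p = 0.0792) or replicate 2 of untreated WT cells (0.59, adjusted p = 0.0752). Prkab1 (chr5:116463595-116474517), a regulatory subunit of the AMP-activated kinase, gave 402 and 555 against 399.5 and 512 counts in WT cells and 298 and 269 against 301 and 247 in Cfp1-/- cells. Its untreated and treated libraries overlapped in both lines (adjusted p = 0.95 and 0.988).

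Of the 4 genes of DNA precursor supply, RNA and protein, 2 rose in both lines. Zmat3 (chr3:32233718-32264600), an RNA-binding zinc finger protein that regulates splicing, rose from 2512 and 2552 to 7600 and 4690 counts in WT cells, by 1.32 ± 0.23 (adjusted p = 0.00107). Zmat3 rose in Cfp1-/- cells from 2752 and 2044 to 5391 and 4792, by 1.13 ± 0.22 (adjusted p = 0.00261). The WT fold change of 2.51 was just above the limit of 2.5, and the log2 fold change lay between 0.93 and 1.63 when a library was left out. It was 1.29 with the replicate block and 1.28 by DESeq2's Wald test, both below the log2 limit of 1.322. Rrm2b (chr15:37853707-37891073), the p53-inducible subunit of ribonucleotide reductase, rose from 274 and 205 to 465 and 445 in WT cells, by 0.97 ± 0.19 (adjusted p = 0.00226). Rrm2b rose in Cfp1-/- cells from 300.4 and 330.4 to 719 and 695, by 1.21 ± 0.19 (adjusted p = 0.00062). Both treated Cfp1-/- libraries of Rrm2b lay above both treated WT libraries.

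Rps27l (chr9:66793893-66797323), a ribosomal protein paralog, was the most abundant listed gene per kilobase of exon in untreated cells, at a mean of 2542 normalized counts per kilobase in WT and 2906 in Cfp1-/- cells. It gave 1988 and 2160 counts in untreated and 1987 and 2828 in treated WT cells, and 2100 and 2643 against 2343 and 2530 in Cfp1-/- cells, so the groups overlapped in both lines (adjusted p = 0.259 and 0.732). Scaled by total counts, the WT change of Rps27l was 0.58 (adjusted p = 0.0266). Hspa4l (chr3:40548417-40600025), a chaperone of the Hsp110 family, gave 565 and 653 against 409 and 599 counts in WT cells and 998 and 1216 against 895 and 880.1 in Cfp1-/- cells. Its log2 fold changes were -0.22 ± 0.20 (adjusted p = 0.384) and -0.28 ± 0.20 (adjusted p = 0.274), and the groups overlapped in WT cells alone.

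All 6 genes of secretion, surface signalling and antigen processing rose in both lines. Tap1 (chr17:34324498-34334170), a subunit of the peptide transporter that loads MHC class I molecules, gave 75.6 and 162 counts in untreated and 1833 and 2152 in treated WT cells. Tap1 gave 59.3 and 81.1 in Cfp1-/- cells without and 1182 and 1467 with doxorubicin. The increases were 4.13 ± 0.32 (adjusted p = 1.4e-05), a 17.5-fold change, and 4.27 ± 0.33 (adjusted p = 1.4e-05), a 19.3-fold change that was the largest of the 34 entries in Cfp1-/- cells. Notch1 (chr2:26313423-26372183), a receptor of juxtacrine signalling, rose from 1169 and 963 to 5537 and 4827 counts in WT cells, by 2.33 ± 0.18 (adjusted p = 1.4e-05). Notch1 rose in Cfp1-/- cells from 1584 and 1203 to 4656 and 3944, by 1.67 ± 0.18 (adjusted p = 7.6e-05).

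Rap2b (chr3:61168429-61172625), a small GTPase of the Ras family, rose from 579 and 799.6 to 2670 and 2150 counts in WT cells, by 1.85 ± 0.20 (adjusted p = 6.9e-05). Rap2b rose in Cfp1-/- cells from 439 and 345 to 2487 and 2640, by 2.75 ± 0.20 (adjusted p = 1.2e-05). The untreated Cfp1-/- libraries lay below the untreated WT ones and the treated libraries of the lines overlapped. Gdf15 (chr8:73153292-73156355), a secreted stress cytokine, was near silent before treatment, at 11.9 and 8.34 counts in WT and 10.2 and 10.1 in Cfp1-/- cells, and reached 79.9 and 67.6 in WT and 60.3 and 47.2 in Cfp1-/- cells. It rose by 2.88 ± 0.39 (adjusted p = 0.00028) and 2.43 ± 0.39 (adjusted p = 0.00074). Gdf15 and Cd82 had means below 200 counts and so could not pass the limits of the study.

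Cd82 (chr2:93259268-93303297), a tetraspanin of the cell surface that restrains metastasis, gave 14.4 and 8.34 counts in untreated and 31.4 and 53.9 in treated WT cells, and 35.2 and 19.4 against 58.2 and 62.7 in Cfp1-/- cells. It rose by 1.93 ± 0.49 (adjusted p = 0.00895) and 1.19 ± 0.43 (adjusted p = 0.0453). The Cfp1-/- call was lost in 3 fits that left out a library, with 0.80 (adjusted p = 0.254) without replicate 2 of untreated Cfp1-/- cells, and under DESeq2's Wald test (adjusted p = 0.0969), and the WT call without replicate 2 of treated (1.47, adjusted p = 0.0686) or of untreated WT cells (1.60, adjusted p = 0.0532). Ier5 (chr1:156943497-156946766), an immediate early gene, gave 99.4 and 136 counts in untreated and 191 and 335 in treated WT cells, an increase of 1.21 ± 0.36 (adjusted p = 0.02). Ier5 gave 30.6 and 43.9 in Cfp1-/- cells without and 113 and 69.4 with the drug, an increase of 1.33 ± 0.39 (adjusted p = 0.0187). Neither group pair overlapped, but the counts were low, and the calls were lost without replicate 2 of treated WT cells (0.75, adjusted p = 0.167) or replicate 1 of untreated WT cells (1.01, adjusted p = 0.102), and without replicate 1 of treated (0.92, adjusted p = 0.142) or of untreated Cfp1-/- cells (1.09, adjusted p = 0.114).

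The next question was whether the response differed between the lines, which was tested as the log2 fold change in Cfp1-/- cells minus that in WT cells. By edgeR's test 0 of the 34 entries differed at an adjusted p under 0.05 against 0.235% of all genes tested, with the lowest adjusted p of 0.111 for Ak1. At an unadjusted p under 0.05 there were 10 entries (29.4%, against 10.6% of all genes tested). The median difference was -0.24 for the entries and 0.00 for all genes tested. With the replicate number as a block, 4 entries differed (11.8%, against 1.54% of all genes tested), and by DESeq2's Wald test the same 4 differed (against 1.54% of the 14058 genes with an adjusted p). These were Phlda3, Cpt1c, Lpin1 and Ak1, and all of them rose less in Cfp1-/- cells. The difference with the block was -1.07 ± 0.23 for Phlda3 (adjusted p = 0.039), -0.95 ± 0.19 for Cpt1c (adjusted p = 0.0338), -0.86 ± 0.18 for Lpin1 (adjusted p = 0.0421) and -0.85 ± 0.17 for Ak1 (adjusted p = 0.0325). By edgeR's test without the block their adjusted p lay between 0.111 and 0.152.

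These 4 genes reached their smaller increase from different starting points. Lpin1, Cpt1c and Ak1 were higher in untreated Cfp1-/- cells than in untreated WT cells and did not pass the test between the treated groups, whereas Phlda3 did not pass the test between the untreated groups and was lower in treated Cfp1-/- cells. Of the other entries with an absolute difference of at least 0.8, Ptprv had -1.24 ± 0.50 (adjusted p = 0.423), Gls2 -0.95 ± 0.25 (adjusted p = 0.21) and Rap2b 0.90 ± 0.27 (adjusted p = 0.282), none of which passed with or without the block. A difference that misses the threshold with n = 2 per group does not show that the lines responded alike.

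The last comparison was between the lines at the same treatment, and it shares its libraries with the responses described above. Without doxorubicin 9 entries were higher in Cfp1-/- cells (26.5%, against 17.9% of all genes tested) and 7 lower (20.6%, against 16.1%). With doxorubicin 3 were higher (8.82%, against 15.1%) and 8 lower (23.5%, against 10.8%). The median difference was 0.21 without and -0.15 with the drug, against 0.01 and 0.02 for all genes tested. Scaled by total counts the medians of the entries were 0.41 and -0.06. The 16 calls without doxorubicin came to 8 without replicate 2 of untreated WT cells and 10 without replicate 1 of untreated Cfp1-/- cells. The 11 calls with doxorubicin came to 7 and 4 without replicate 1 and 2 of treated WT cells, and to 5 and 3 without replicate 1 and 2 of treated Cfp1-/- cells.

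The group of metabolism and transport had 7 of its 9 entries higher in untreated Cfp1-/- cells. These were Gls2 (0.94 ± 0.17, adjusted p = 0.00346), Lpin1 (0.94 ± 0.14, adjusted p = 0.00128), Cpt1c (0.86 ± 0.15, adjusted p = 0.00277), Fdxr (0.80 ± 0.16, adjusted p = 0.0056), Steap3 (0.75 ± 0.26, adjusted p = 0.0478), Ak1 (0.69 ± 0.12, adjusted p = 0.00277) and Slc19a2 (0.46 ± 0.13, adjusted p = 0.0192). After treatment only Fdxr of these 7 passed the test (0.58 ± 0.16, adjusted p = 0.0246). Hspa4l was higher in Cfp1-/- cells at both treatments (0.89 ± 0.20, adjusted p = 0.00782, and 0.84 ± 0.20, adjusted p = 0.0147), Plk3 without the drug (0.80 ± 0.26, adjusted p = 0.0405) and Rrm2b with it (0.66 ± 0.18, adjusted p = 0.0271). With a library left out, the untreated differences ranged from 0.50 to 0.99 for Steap3 and from 0.38 to 0.56 for Slc19a2. They ranged from 0.75 to 1.05 for Hspa4l and from 0.59 to 1.0 for Plk3. The treated differences ranged from 0.59 to 1.14 for Hspa4l, from 0.62 to 0.69 for Rrm2b and from 0.52 to 0.635 for Fdxr. Each of these calls was lost in at least 1 such fit. The treated calls of Rrm2b and Fdxr were lost whichever treated library was left out. The untreated calls of Slc19a2 and Plk3 and the treated call of Hspa4l were each lost in 3 fits.

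Crip2 was the entry with the largest deficit in untreated Cfp1-/- cells (-1.91 ± 0.18, adjusted p = 0.00015), followed by Ier5 (-1.62 ± 0.39, adjusted p = 0.0112) and Aen (-1.29 ± 0.13, adjusted p = 0.00023). The same 3 genes were lower with doxorubicin, Ier5 by -1.50 ± 0.37 (adjusted p = 0.0165), Aen by -1.47 ± 0.14 (adjusted p = 0.00025) and Crip2 by -1.28 ± 0.17 (adjusted p = 0.00119). Psrc1 (-0.48 ± 0.16, adjusted p = 0.0408, and -0.90 ± 0.16, adjusted p = 0.00409) and Prkab1 (-0.73 ± 0.22, adjusted p = 0.0323, and -0.71 ± 0.23, adjusted p = 0.0446) were also lower at both treatments. Rap2b (-0.79 ± 0.20, adjusted p = 0.0134) and the Tnfaip8 entry ENSMUSG00000062210 (-1.05 ± 0.30, adjusted p = 0.023) were lower without the drug alone by this test. Perp (-1.03 ± 0.29, adjusted p = 0.0287), Phlda3 (-0.73 ± 0.17, adjusted p = 0.0132) and Ei24 (-0.47 ± 0.15, adjusted p = 0.0401) were lower with it. Of the genes called at 1 treatment alone, those whose response itself differed were Lpin1, Cpt1c, Ak1 and Phlda3 with the block. The same 4 differed by DESeq2's Wald test without a block, and none by edgeR's test without it.

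Several of these calls were lost when a library was left out. Such a fit holds fewer libraries, so a lost call does not show that the difference rested on that library. Crip2 and Aen kept their calls at both treatments, and Psrc1 its call with doxorubicin, whichever library was left out. Without replicate 1 of untreated Cfp1-/- cells the untreated differences were -1.37 for Ier5 (adjusted p = 0.0871), -0.25 for Psrc1 (adjusted p = 0.3) and -0.78 for the Tnfaip8 entry (adjusted p = 0.166). Without replicate 2 of untreated WT cells they were -0.54 for Rap2b (adjusted p = 0.101) and -0.48 for Prkab1 (adjusted p = 0.208). Without replicate 2 of treated Cfp1-/- cells the treated differences were -1.18 for Ier5 (adjusted p = 0.121), -0.88 for Perp (adjusted p = 0.168), -0.65 for Phlda3 (adjusted p = 0.095), -0.57 for Prkab1 (adjusted p = 0.228) and -0.42 for Ei24 (adjusted p = 0.179). Of the 8 fits that left out a library, the treated call of Ei24 was lost in 6 and that of Prkab1 in 5, and the untreated calls of Psrc1 and Steap3 were each lost in 5. Ei24 was also lost with the affected second run left out (-0.43, adjusted p = 0.0513) and with total count scaling (-0.38, adjusted p = 0.0806), as was Prkab1 with total count scaling (-0.62, adjusted p = 0.0656, and -0.53, adjusted p = 0.0861, without the drug). Without the drug, total count scaling also ended the calls of Psrc1 (-0.29, adjusted p = 0.2) and of the Tnfaip8 entry (-0.86, adjusted p = 0.0536), and DESeq2's size factors that of Steap3 (0.73, adjusted p = 0.052). With the replicate block 11 entries were higher and 9 lower without doxorubicin, against 22.3% and 21.3% of all genes tested, and 4 were higher and 9 lower with it, against 20.5% and 16.2%. The additional ones were Abhd4 (0.50, adjusted p = 0.019), Notch1 (0.41, adjusted p = 0.0125), Plk2 (-0.44, adjusted p = 0.0377) and Tap1 (-0.69, adjusted p = 0.0271) without the drug, and Dram1 (0.93, adjusted p = 0.0281) and Tap1 (-0.57, adjusted p = 0.023) with it. Scaling by total counts shifted the median of all genes by 0.19 without and 0.09 with the drug. With this scaling 14 entries were higher and 4 lower without doxorubicin, and 4 higher and 6 lower with it. The share of all genes called in this way is not given, so these counts cannot be set against it.

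**Figure D5:**
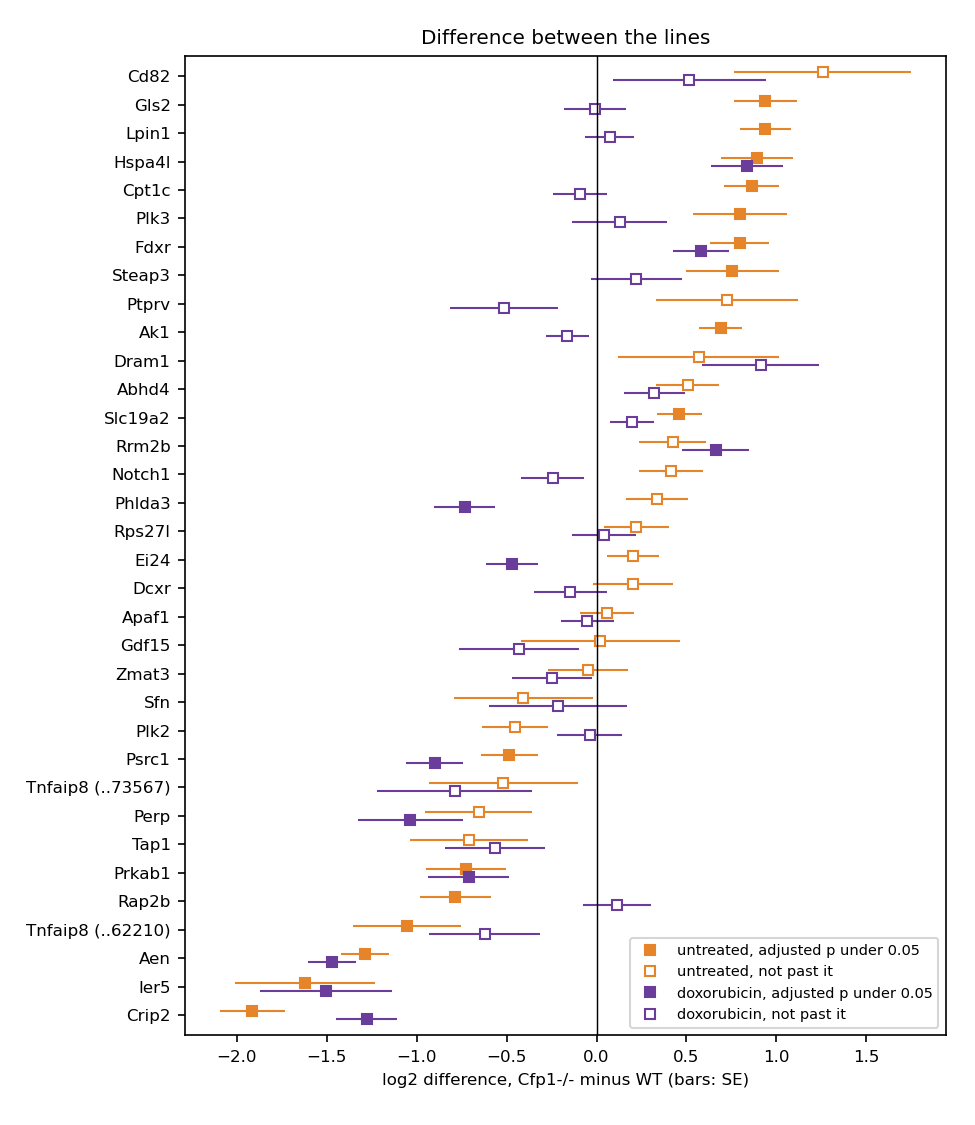
Log2 difference between Cfp1-/- and WT cells for each entry without (orange) and with doxorubicin (purple), ordered by the untreated value, with standard errors as bars (n = 2 per group) and filled squares at an adjusted p under 0.05. Aen, Ier5 and Crip2 lie below -1 at both treatments, and Gls2, Lpin1, Cpt1c and Ak1 lie above 0.6 without the drug and within 0.2 of 0 with it.

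Other genes of the p53 pathway, a list of 30 that includes p53 itself, its feedback regulators and its arrest and death targets, were all tested for comparison. In WT cells 20 rose, 1 fell and 9 did not pass the test, and in Cfp1-/- cells 19 rose, 2 fell and 9 did not pass. Of all genes tested, 26.5% rose and 21.8% fell in WT cells, and 27.8% rose and 21.0% fell in Cfp1-/- cells. With the replicate block 23 rose and 2 fell in WT cells, with Pml (0.50, adjusted p = 0.0048), Sesn1 (0.45, adjusted p = 0.0452) and Xpc (0.37, adjusted p = 0.0426) added to those that rose and Gadd45a (-0.56, adjusted p = 0.00524) to those that fell. In Cfp1-/- cells 20 rose and 2 fell with the block, the addition being Pml (0.53, adjusted p = 0.00353). The share of all genes called with the block is not given for these responses, so these block counts cannot be set against it. Without the block the median log2 fold changes of the 30 genes were 1.44 and 1.12, beside 1.76 and 1.20 for the 34 entries. The 4 with the largest change in WT cells were the death receptor Fas (13.6 and 13.6 to 309 and 400.3 counts, log2 fold change 4.74 ± 0.42, adjusted p = 2.7e-05), Zfp365 (606 and 768 to 7303 and 7293, 3.46 ± 0.15, adjusted p = 1.7e-06), the antiproliferative gene Btg2 (415 and 628 to 4840 and 6053, 3.44 ± 0.21, adjusted p = 4.3e-06) and Cdkn1a, the cyclin-dependent kinase inhibitor p21 (131 and 226 to 1805 and 1655, 3.33 ± 0.26, adjusted p = 1.3e-05). Their changes in Cfp1-/- cells were 4.29, 2.85, 2.80 and 2.07.

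The gene that fell in both lines was Cop1, a ubiquitin ligase for p53 listed in the table as Rfwd2 (-0.41, adjusted p = 0.0285, and -0.36, adjusted p = 0.0492). The other one that fell in Cfp1-/- cells was Trp53, the gene encoding p53, from 4669 and 4324 to 3408 and 2718 counts (-0.51 ± 0.15, adjusted p = 0.0173). Trp53 gave 2473 and 2283 in untreated and 2636 and 2286 in treated WT cells (adjusted p = 0.626), and was 0.95 higher in untreated Cfp1-/- than in untreated WT cells on the log2 scale (adjusted p = 0.0016). These 2 genes, and those named for the block, were named after their values were seen. By edgeR's test 0 of the 30 pathway genes had a response difference at an adjusted p under 0.05, against 0.235% of all genes tested. At an unadjusted p under 0.05 there were 7, against 10.6% of all genes tested. With the replicate block there was 1 (Mdm4, -0.94, adjusted p = 0.0421), against 1.54% of all genes tested. By DESeq2's Wald test there were 2, against 1.54% of the 14058 genes with an adjusted p.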

How the data were processed

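The 16 RNA-Seq samples were assigned to 4 groups from their labels, each biological replicate being 2 samples. Libraries were strand-specific and ribosomal RNA had been removed. The authors mapped paired reads to the mouse genome (NCBIm37, mm9) with STAR (2.2.1 in the submitters' processing notes, another version in the methods) and counted them per Ensembl gene with HTSeq (stranded, union mode), which drops reads on overlapping genes. The deposited raw table holds counts per technical replicate; the deposited normalized table holds a signal, with technical replicates added up and scaled by the authors with DESeq, called normalized count here.

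Technical replicates were summed and fitted with edgeR 4.0.16 (R 4.3.3, limma 3.58.1): filterByExpr, TMM, 1 coefficient per group, glmQLFit, glmQLFTest and Benjamini-Hochberg adjustment over 15758 genes (common dispersion 0.0304, prior df 5.62). The study used DESeq. SEs were derived from the test statistic. Scripts were tested on simulated counts. Same-numbered replicates deviated together (r of 0.178 to 0.575 over 12332 genes, for each pair of groups). The numbers may therefore pair the samples, although no source says what a number shares. The main fit had no block and so did not model this shared deviation, and the replicate block was an alternative. Other alternatives were DESeq2 1.42.0, other scaling, no filter, separate or fewer technical replicates, the 2 groups compared alone, other limits, and each library left out. Where a group was left with 1 library, it was assumed to vary like the others.

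By rule, values per library are given for listed genes that passed the limits of the study, fell, or differed between the lines, and for the 4 other pathway genes with the largest change in WT cells; the remaining listed genes were given with their values in addition. The listed genes, role groups, marker and pathway lists were chosen with earlier results of these data known, and the search for p53 elements was added after the fits. Coordinates are those of the deposited tables, and symbols, exon lengths and gene parts came from the GENCODE annotation of the same build. Of the markers, Tfap2c and Sox1 were not matched by symbol. The primitive endoderm markers summed to 25.02 to 100.1 normalized counts per library, the trophoblast markers to 18.69 to 99.29 and the neural markers to 909.4 to 2720. The neural marker Pax6 gave 1761 and 738 counts in untreated and 74.7 and 27.5 in treated WT cells (log2 fold change -4.595, edgeR's test, adjusted p = 9.1e-05). In Cfp1-/- cells Pax6 gave 107.5 and 91.3 without and 13.3 and 9.64 with the drug. The neural marker Tubb3 did not pass the test in WT cells (-0.073).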

Additional observations from a re-analysis of the deposited data

Results flagged for a closer look

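In 4 of the listed genes the response to doxorubicin differed between the lines by a test of the difference itself when the replicate number was a block. The log2 response in Cfp1-/- cells minus that in WT cells was -1.07 for Phlda3, -0.945 for Cpt1c, -0.861 for Lpin1 and -0.85 for Ak1, and each was negative in all fits that left out a library, where they ranged from -1.3 to -0.942, from -1.1 to -0.796, from -1.02 to -0.747 and from -0.928 to -0.793. None passed the threshold in edgeR's fit without the block, whereas all 4 passed by DESeq2's Wald test, which had no block. The count of Ak1 can be affected by Eng, which overlaps its end.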

How the results depend on the processing

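Over the alternatives, 24 to 29 of the 34 entries were higher with doxorubicin in WT cells and 20 to 26 in Cfp1-/- cells, and no call changed sign. With the replicate block the counts were 28 and 25 with doxorubicin, and 15 and 12 at the limits of the study. They were 20 without and 13 with doxorubicin between the lines, and 4 for the response difference. Apart from the changes given with the results, the block changed no other call of the listed genes. The response difference was called for 4 entries by DESeq2 and for 5 with the block and the affected run left out. It was called for 8 with technical replicates as separate libraries, where 17 differed between the treated lines. That fit treats the 2 runs of a library as independent samples, which understates the spread between biological replicates. Its higher counts are therefore no further evidence of differences. Shares of all genes for these alternatives are given only where stated with the results. Leaving out single libraries gave 8 to 17 entries between the untreated lines, the lowest without replicate 2 of untreated WT cells, and 3 to 12 between the treated lines, the lowest without replicate 2 of treated Cfp1-/- cells.

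The median log2 fold change of the entries was 1.71 in WT and 1.16 in Cfp1-/- cells both by DESeq2 and with its size factors, 2.07 and 1.41 with total count scaling, and 1.17 in Cfp1-/- cells with separate technical replicates; it ranged from 1.6 to 1.76 and from 1.09 to 1.39 with a library left out. That of the response difference was -0.286 with a run left out, -0.287 with separate technical replicates, -0.339 with total count scaling and -0.372 to -0.227 with a library left out. Between the untreated lines it was 0.184 by DESeq2, 0.185 with its size factors, 0.237 in a fit of the compared groups, 0.232 with separate technical replicates, 0.405 with total count scaling and 0.2 to 0.276 with a library left out, and between the treated lines -0.0604 with total count scaling and -0.231 to -0.114. A change of scaling shifts all genes by construction, and the causes of the other moves were not tested.

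Signs turned for entries that passed the test in neither form. Tnfaip8 (ENSMUSG00000073567) in WT cells was -0.0242 by DESeq2, -0.0248 with its size factors, -0.28 from first technical replicates, -0.00715 with the block, -0.00149 with the block and a run left out, and -0.68 to 0.5 with a library left out. Hspa4l in WT cells was 0.0905 with total count scaling and -0.534 to 0.0191 with a library left out. Prkab1 was 0.00815 with separate technical replicates, 0.295 with total count scaling and -0.235 to 0.214 in WT cells, and 0.209 and -0.176 to 0.137 in Cfp1-/- cells. Tnfaip8 (ENSMUSG00000062210) in Cfp1-/- cells was 0.0156 from first technical replicates, 0.0911 with total count scaling and -0.381 to 0.173 with a library left out. With a library left out, Plk3 in WT cells ranged from -0.127 to 0.318, and Rps27l from -0.022 to 0.489 in WT and -0.0826 to 0.241 in Cfp1-/- cells. Low counts and 2 replicates per group limit the precision of Cd82, Gdf15, Dram1, Ier5, Ptprv and Tnfaip8.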
